A study of Mus musculus with 15 samples.

Results

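The immediate early genes described here are 31 genes of the fast transcriptional response, chosen by their symbols and found by Ensembl identifier among the 30672 genes of a count table from mouse tibialis anterior, a fast-twitch muscle of the lower leg. All 31 passed the filter on low counts, as did 15533 genes of the whole table. The 15 muscle samples were from males of the 129Pas strain at an age of 7 weeks. WT were untreated wild-type mice (n = 4), and WT + TAM were wild-type mice given tamoxifen (n = 4). Mtm1-/y were untreated males with a mutated X-linked Mtm1 gene (n = 4), and Mtm1-/y + TAM were such males given tamoxifen (n = 3). Mtm1 codes for myotubularin, a phosphoinositide phosphatase whose loss causes X-linked myotubular myopathy. Tamoxifen blocks or activates oestrogen receptors depending on the tissue. The sources used here give neither the regimen of the drug nor the time of day at dissection or the interval from death to RNA extraction.

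Immediate early genes are transcribed within minutes of a stimulus, without new protein synthesis. Kinase cascades phosphorylate factors that already sit at their promoters, such as SRF with its ELK partners at CArG boxes and CREB at cyclic AMP response elements (CRE). Many of the products are transcription factors, among them the Fos and Jun proteins that pair to form AP-1, the Egr zinc fingers and the NR4A orphan receptors, and others shut the response down by dephosphorylating kinases or destroying short-lived transcripts. In skeletal muscle these genes are known to respond to contraction, stretch and injury.

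RefSeq promoter windows (GRCm38.p6, 250 bases before to 50 after an annotated start) were at hand for 23 of the 31 genes, in 32 windows. They were searched on both strands for the CRE (TGACGTCA), the AP-1 site (TGANTCA), the EGR site (GCGGGGGCG) and the CArG box, and 12 of the 23 genes held at least 1 of these motifs. The EGR site was found for 7 of the 23 genes (Fosb, Fosl2, Nr4a1, Zfp36, Klf2, Klf4 and Socs3) and for 3.31% of all 27025 genes with a window. The CRE was found for 3 (Btg2, Dusp1 and Maff) against 2.03% of all genes, the CArG box for 2 (Egr2 and Zfp36) against 1.81%, and the AP-1 site for 1 (Csrnp1) against 8.97%. The 250 bases before the start are shown, 5′ to 3′ with the motifs in capitals, for the 5 genes that held a motif and differed between untreated Mtm1-/y and WT muscle, and for Junb, the member with the lowest adjusted p in that comparison, whose window held none of the motifs.
Zfp36 (EGR site and CArG box, chr7:28379229-28379478, minus strand): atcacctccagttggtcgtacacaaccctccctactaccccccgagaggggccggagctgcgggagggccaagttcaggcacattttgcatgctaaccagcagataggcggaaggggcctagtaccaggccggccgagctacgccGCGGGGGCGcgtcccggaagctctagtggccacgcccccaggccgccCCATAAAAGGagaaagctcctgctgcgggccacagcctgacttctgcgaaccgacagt
Btg2 (CRE, chr1:134079156-134079405, minus strand): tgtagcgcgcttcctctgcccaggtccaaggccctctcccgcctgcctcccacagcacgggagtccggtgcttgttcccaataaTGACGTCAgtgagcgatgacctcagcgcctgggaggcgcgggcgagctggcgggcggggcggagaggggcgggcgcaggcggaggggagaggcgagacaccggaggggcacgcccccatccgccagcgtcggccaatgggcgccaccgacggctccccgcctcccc
Dusp1 (CRE, chr17:26508473-26508722, minus strand): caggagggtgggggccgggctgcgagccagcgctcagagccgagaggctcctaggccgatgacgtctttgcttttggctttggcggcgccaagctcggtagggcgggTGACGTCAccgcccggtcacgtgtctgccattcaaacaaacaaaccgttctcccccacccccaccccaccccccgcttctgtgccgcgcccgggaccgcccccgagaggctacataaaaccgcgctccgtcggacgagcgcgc
Maff (CRE, chr15:79347270-79347519, plus strand): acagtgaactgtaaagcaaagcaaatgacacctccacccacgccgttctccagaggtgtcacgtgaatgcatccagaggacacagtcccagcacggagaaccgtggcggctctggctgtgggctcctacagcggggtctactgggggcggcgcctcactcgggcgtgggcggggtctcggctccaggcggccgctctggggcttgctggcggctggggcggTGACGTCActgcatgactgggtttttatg
Csrnp1 (AP-1 sites, chr9:119983024-119983273, minus strand): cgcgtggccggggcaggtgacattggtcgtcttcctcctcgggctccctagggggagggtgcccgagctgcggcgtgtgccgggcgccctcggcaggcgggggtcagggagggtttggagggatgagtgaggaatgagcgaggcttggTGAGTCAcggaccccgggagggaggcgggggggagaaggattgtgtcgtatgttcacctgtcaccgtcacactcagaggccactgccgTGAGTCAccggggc
Junb (none of the motifs, chr8:84978749-84978998, minus strand): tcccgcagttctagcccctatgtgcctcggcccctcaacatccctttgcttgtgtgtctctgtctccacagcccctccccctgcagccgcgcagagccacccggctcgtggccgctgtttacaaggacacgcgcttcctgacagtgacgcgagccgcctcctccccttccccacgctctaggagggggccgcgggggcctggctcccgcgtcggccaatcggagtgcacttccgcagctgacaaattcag
In the Zfp36 window the EGR site began 105 bases and the CArG box 58 bases before the start. The CRE began 166 bases before the start in Btg2, 143 in Dusp1 and 29 in Maff. The AP-1 sites of Csrnp1 began 102 and 14 bases before the start shown. Maff and Csrnp1 also had windows at other annotated starts, and these held none of the motifs. A motif match describes these letters and no more.

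Library totals ranged from 18042558 to 45823277 counts. Mtm1 lay between 13.5 and 17.7 CPM (counts per 1000000, scaled by library total and TMM factor) in the wild-type libraries and between 2.91 and 3.71 CPM in the mutant libraries, with no overlap. A pair of libraries stood apart in a principal component analysis of all tested genes. WT + TAM replicate 1 had a summed level of adipocyte markers of 35.4 CPM, against 0.267 to 3.62 CPM in the rest of its group, and Mtm1-/y replicate 1 had neutrophil markers summing to 3.03 CPM, against 0.191 to 0.941 CPM. Fast muscle markers summed to 136691 to 226075 CPM over all libraries, and none of the 7 was at 0. The labels number the replicates of a group and do not say that each came from a separate animal, so p-values measure the spread between these samples.

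Most immediate early genes stood higher in untreated Mtm1-/y than in untreated WT muscle. Of the 31 members, 16 were called higher and 1 was called lower (edgeR quasi-likelihood test, Benjamini-Hochberg adjusted p under 0.05 over all tested genes), where 15.5% of all tested genes were called higher and 14.9% lower. The fitted log2 fold change was above 0 for 29 of the 31, with a median of 0.95 against 0.00 over all tested genes. The 4 Mtm1-/y values lay wholly above the 4 WT values for 12 members (14.8% of all tested genes) and wholly below for 1 (15.7%). Leaving out both libraries that stood apart gave 14 higher and 1 lower, and the share of all tested genes called in that fit is not given here. By role, all 3 Jun family members were called, 2 of 4 Fos family members, both other leucine zipper factors (Atf3 and Maff), 2 of 3 Egr genes, 1 of 4 Klf genes, 3 of 3 among Ier2, Ier5 and Csrnp1, 3 of 6 feedback regulators and 0 of 3 NR4A receptors.

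**Figure D1:**
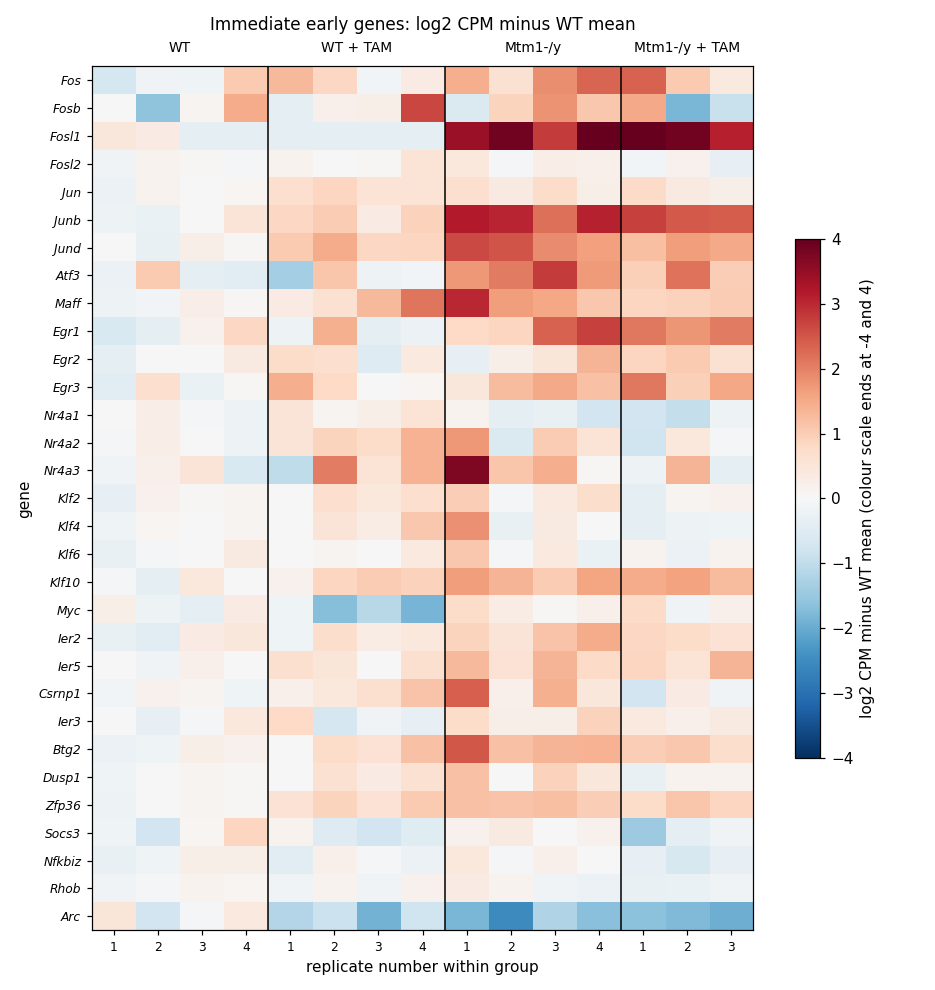
Log2 CPM of each immediate early gene (rows) in each of the 15 libraries (columns, in 4 groups), minus the mean of the 4 WT libraries, with red for higher and blue for lower. Fosl1, Junb and Jund are red in every mutant library, Arc is blue in them, and Nr4a3, Klf4, Btg2 and Csrnp1 are darkest in Mtm1-/y replicate 1. The colour scale ends at -4 and 4, and Fosl1 passes it in some libraries.

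The Jun proteins are the obligate partners in AP-1. Junb (chr8:84974484-84978718), which codes for a Jun protein associated with the maintenance of muscle mass, was at 3.52, 3.36, 4.03 and 5.81 CPM in WT replicates 1 to 4 and at 37.6, 34.0, 18.8 and 35.2 CPM in Mtm1-/y replicates 1 to 4. The groups did not overlap, and the lowest mutant value, in replicate 3, was still well above the highest WT value. On the log2 scale the difference was 2.91 ± 0.23 (SE of the fit, adjusted p = 2.66e-06). Jund (chr8:70698949-70700616), whose product is the most steadily present Jun protein in many tissues, was at 5.17, 4.23, 6.15 and 5.37 CPM in WT and at 32.3, 29.7, 19.5 and 16.3 CPM in Mtm1-/y. Again the groups did not overlap, and the mutant libraries spread more widely than the WT libraries, with a log2 fold change of 2.22 ± 0.22 (adjusted p = 8.72e-06). Jun (chr4:95049034-95052222) rose least of the family, from 30.1 to 39.0 CPM in WT to 41.9 to 58.2 CPM in Mtm1-/y, a log2 fold change of 0.51 ± 0.13 (adjusted p = 0.00974). Junb, Jund and Jun overlap annotated genes on the opposite strand, and whether the counting used strand is unknown from the sources used here. The partner of Junb, Prdx2, was at 99.1 to 116 CPM in WT and 95.5 to 122 CPM in Mtm1-/y, the partner of Jund, Gm11175, did not exceed 0.363 CPM in these groups, and the partner of Jun, Junos, fell by 1.38 on the log2 scale (adjusted p = 0.000451). Of the 31 members 8 overlap an annotated gene, the others being Fosl1, Atf3, Dusp1, Zfp36 and Csrnp1. Their opposite-strand overlaps carry the same uncertainty. Dusp1 (with AC122252.1 and AC122252.4) and Csrnp1 (with Cx3cr1) also overlap genes on the same strand, which counting by strand would not separate.

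The Fos proteins bind DNA only with a partner such as Jun. Fosl1 (chr19:5447547-5455946), coding for Fra-1, had 3 counts over the 4 WT libraries and 171 counts over the 4 Mtm1-/y libraries. It was at 0.0492, 0.0395, 0 and 0 CPM in WT and at 0.837, 1.13, 0.508 and 2.13 CPM in Mtm1-/y, so that the gene was near the detection limit in WT and present in every mutant library. Its partner on the opposite strand, Ccdc85b, was more abundant, at 6.68 to 10.1 CPM in WT and 9.21 to 17.2 CPM in Mtm1-/y. The ratio of pooled CPM was 50.2 (95% interval 16.9 to 246, exact, counting error only), and the edgeR test gave an adjusted p of 0.000238. Fos (chr12:85473890-85477273), the best known member of the class, was at 3.54, 5.29, 5.13 and 12.1 CPM in WT and at 16.2, 9.03, 21.4 and 29.9 CPM in Mtm1-/y. WT replicate 4 lay above Mtm1-/y replicate 2, so the groups overlapped, and the log2 fold change of 1.55 ± 0.51 passed narrowly (adjusted p = 0.0361). The call of Fos was lost without any of WT replicates 1, 2 and 3 or Mtm1-/y replicates 1, 3 and 4 (adjusted p = 0.0554 to 0.0971), and without the filter on low counts (adjusted p = 0.0915). Fosb was at 0.751 to 6.95 CPM in WT and 1.62 to 8.61 CPM in Mtm1-/y (0.62 ± 0.88, adjusted p = 0.631), and Fosl2 at 22.6 to 27.4 and 24.3 to 33.8 CPM (0.23 ± 0.14, adjusted p = 0.222). Neither was called.

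Atf3 and Maff code for leucine zipper factors that pair within the wider AP-1 network, Atf3 being a marker of cellular stress. Atf3 was at 4.67, 11.4, 4.20 and 3.99 CPM in WT and at 18.4, 23.1, 38.6 and 18.1 CPM in Mtm1-/y, with no overlap although WT replicate 2 was high for its group (log2 fold change 2.02 ± 0.51, adjusted p = 0.00974). Maff, whose product lacks a transactivation domain, was at 2.51, 2.65, 3.45 and 2.96 CPM in WT and at 23.7, 9.28, 8.48 and 6.11 CPM in Mtm1-/y. Every mutant value was above every WT value, with replicate 1 far above the others (2.05 ± 0.44, adjusted p = 0.00369).

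The Egr zinc fingers bind GC-rich sites, and Egr3 is needed for muscle spindles. Egr1 was at 10.6, 12.3, 17.9 and 28.3 CPM in WT and at 28.1, 29.4, 82.5 and 107 CPM in Mtm1-/y. The highest WT library and the lowest mutant library met at about the same level, and the mutant libraries split into a lower and a higher pair. Egr1 was called (1.84 ± 0.53, adjusted p = 0.0206), and Egr3 was called at 0.467 to 1.07 CPM in WT and 0.915 to 1.97 CPM in Mtm1-/y (1.16 ± 0.39, adjusted p = 0.0340). The call of Egr1 was lost without WT replicate 1 or 2 or Mtm1-/y replicate 4 (adjusted p = 0.0571 to 0.0590) or without the filter (adjusted p = 0.0533), and that of Egr3 without WT replicate 1, 3 or 4 or Mtm1-/y replicate 2, 3 or 4 (adjusted p = 0.0594 to 0.101). Egr2, at 1.01 to 1.70 and 1.05 to 3.49 CPM, was not called (0.58 ± 0.34, adjusted p = 0.213).

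The NR4A genes code for orphan nuclear receptors that in muscle are known to respond to exercise. Nr4a1 had the highest level of the 31 genes per length in WT, at 73.4 CPM per kilobase of exon, followed by Rhob at 21.2, Dusp1 at 14.2 and Jun at 11.1, with Egr3 at 0.155 and Fosl1 at 0.0109 as the lowest. It was at 252, 310, 248 and 221 CPM in WT and at 279, 196, 209 and 150 CPM in Mtm1-/y, and the groups overlapped (-0.30 ± 0.19, adjusted p = 0.241). Nr4a3 was at 3.86, 4.90, 6.15 and 2.79 CPM in WT and at 56.8, 9.15, 11.8 and 4.35 CPM in Mtm1-/y. A single library, Mtm1-/y replicate 1, held most of that difference, which missed the threshold (2.23 ± 0.81, adjusted p = 0.0542) and passed it in DESeq2 (adjusted p = 0.0188). Nr4a3 also passed without WT + TAM replicate 1 or Mtm1-/y replicate 4 (adjusted p = 0.0376 and 0.0280). Nr4a2 was not called (0.95 ± 0.39, adjusted p = 0.0784) except without Mtm1-/y replicate 2 (1.22, adjusted p = 0.0146).

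Klf10, a zinc finger gene induced by TGF-beta, was at 14.96, 12.0, 20.8 and 15.2 CPM in WT and at 49.1, 39.7, 31.5 and 45.8 CPM in Mtm1-/y. The groups were well apart (1.40 ± 0.20, adjusted p = 0.000164). Klf2, a flow-responsive gene of endothelium, had a log2 fold change of 0.55 ± 0.21 (adjusted p = 0.0630), Klf4 of 0.72 ± 0.38 (adjusted p = 0.169) and Klf6 of 0.37 ± 0.23 (adjusted p = 0.248), and in all of them Mtm1-/y replicate 1 was the highest mutant library. Klf2 passed in DESeq2 (adjusted p = 0.0426) and without WT + TAM replicate 1 or Mtm1-/y replicate 2 (adjusted p = 0.0431 and 0.0149). Myc, the growth-promoting factor, stood at 2.17 to 3.55 and 2.89 to 4.73 CPM (0.31 ± 0.32, adjusted p = 0.491).

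Ier2, Ier5 and Csrnp1 code for small or little-studied nuclear proteins. Ier2 was at 5.14 to 9.65 CPM in WT and 10.2 to 19.9 CPM in Mtm1-/y (1.01 ± 0.23, adjusted p = 0.00515), and Ier5 at 4.50 to 5.71 and 7.46 to 13.0 CPM (1.04 ± 0.21, adjusted p = 0.00210), without overlap. Csrnp1 was at 8.88, 10.8, 10.4 and 8.48 CPM in WT and at 51.1, 10.97, 25.7 and 13.1 CPM in Mtm1-/y. Replicate 2 of the mutant barely cleared the highest WT value, replicate 1 was the highest, and the difference of 1.39 ± 0.42 (adjusted p = 0.0235) became 0.79 (adjusted p = 0.0745) without Mtm1-/y replicate 1. The call of Csrnp1 was also lost without WT replicate 1 or 4 (adjusted p = 0.0584 and 0.0599) or without the filter on low counts (adjusted p = 0.0656).

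The feedback regulators end the response. Zfp36 (chr7:28376784-28380253), coding for tristetraprolin, which directs AU-rich transcripts to decay, was at 23.8, 27.4, 29.3 and 28.1 CPM in WT and at 60.7, 59.9, 63.1 and 53.2 CPM in Mtm1-/y. It was the tightest of the 31 genes within groups and well separated between them (1.13 ± 0.12, adjusted p = 1.25e-05). Btg2 (chr1:134075170-134079120), an antiproliferative gene, was at 21.4, 22.6, 30.1 and 28.5 CPM in WT and at 143, 56.7, 64.9 and 66.9 CPM in Mtm1-/y, without overlap and with replicate 1 far above the other mutant libraries (1.69 ± 0.29, adjusted p = 0.000866). Dusp1, a phosphatase of MAP kinases, was at 41.7, 47.0, 50.5 and 48.4 CPM in WT and at 105, 46.9, 88.1 and 64.0 CPM in Mtm1-/y. Mtm1-/y replicate 2 fell inside the WT range, the opposite-strand partner Ergic1 was at 30.8 to 39.1 CPM in WT and 27.6 to 42.0 CPM in Mtm1-/y, and the log2 fold change of 0.70 ± 0.21 (adjusted p = 0.0209) lost its call without Mtm1-/y replicate 1 (0.50, adjusted p = 0.0670) or WT replicate 1 (0.64, adjusted p = 0.0596), and without the filter (adjusted p = 0.0517). Ier3 (0.55 ± 0.27, adjusted p = 0.139), Socs3 (0.06 ± 0.31, adjusted p = 0.907) and Nfkbiz (0.14 ± 0.18, adjusted p = 0.594) were not called, though Ier3 passed without WT + TAM replicate 1 (adjusted p = 0.0458).

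Arc was the single member called lower. It codes for a cytoskeleton-associated protein best known from neurons and was at 5.98, 2.49, 4.03 and 5.63 CPM in WT and at 1.15, 0.686, 1.81 and 1.30 CPM in Mtm1-/y. Every mutant library was below every WT library (-1.87 ± 0.32, adjusted p = 0.000598). Rhob, a small GTPase gene, was at 45.5 to 55.1 CPM in WT and 42.6 to 62.0 CPM in Mtm1-/y (0.04 ± 0.12, adjusted p = 0.823).

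**Figure D2:**
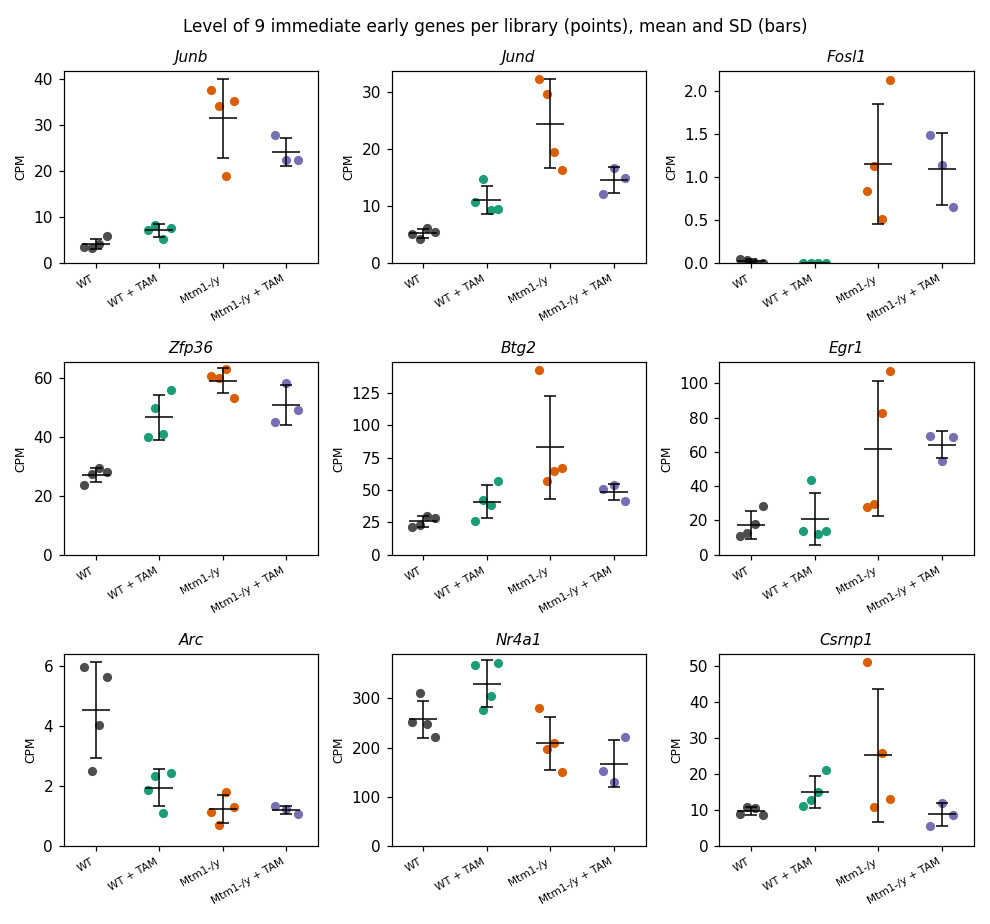
CPM of 9 immediate early genes in each library (points) by group, with the group mean and SD (bars), each panel on its own linear axis from 0. Junb, Jund, Fosl1, Zfp36 and Btg2 lie higher in Mtm1-/y than in WT without overlap, Arc lies lower, and Jund and Zfp36 lie higher in WT + TAM than in WT.

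Markers of other cell types moved in the same comparison. Over all marker lists 6 of 46 tested genes were called higher and 13 lower, beside 15.5% and 14.9% of all tested genes. All 6 endothelial markers were called lower in Mtm1-/y, with a summed level of 446 to 584 CPM in WT and 236 to 319 CPM in Mtm1-/y. Of 4 satellite cell markers, 3 were called lower, with sums of 15.6 to 20.9 and 3.16 to 7.10 CPM. Schwann cell markers (2 of 4 called higher) summed to 42.6 to 62.5 and 57.1 to 85.8 CPM, macrophage markers (1 of 5 called higher) to 16.1 to 24.6 and 15.4 to 31.4 CPM, and fibroblast markers (1 of 5 called higher) to 462 to 568 and 305 to 776 CPM. Of 2 neutrophil markers tested 1 was called higher, with sums of 0.266 to 0.566 and 0.191 to 3.03 CPM. Smooth muscle and pericyte markers (1 higher and 2 lower of 4) summed to 475 to 594 and 274 to 390 CPM. Of 7 fast muscle markers 2 were called lower, and 0 adipocyte and 0 blood markers were called, the blood markers summing to 69.1 to 96.2 and 14.9 to 66.5 CPM. No marker of any list was at 0 in all libraries of a group. The part of these differences in the levels of the immediate early genes was not tested, and in whole muscle a change in the number of cells of a type cannot be told from a change in RNA per cell.

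Between the treated groups the picture was mixed. Of the 31 members, 4 were called higher (10.6% of all tested genes) and 1 lower (9.46%) in Mtm1-/y + TAM than in WT + TAM. The fitted log2 fold change was above 0 for 15 members and below 0 for 16, with a median of -0.12 against -0.02 over all tested genes. Junb was at 7.23, 8.26, 5.14 and 7.70 CPM in WT + TAM and at 27.7, 22.4 and 22.3 CPM in Mtm1-/y + TAM, without overlap (1.77 ± 0.23, adjusted p = 0.000164). Fosl1 had 0 counts over the 4 WT + TAM libraries, which allows up to 3 counts in the group or 0.0268 CPM, and 97 counts over the 3 Mtm1-/y + TAM libraries, where it was at 1.48, 1.14 and 0.655 CPM. Its pooled level in Mtm1-/y + TAM was 37.5-fold that limit, a ratio that leaves out the error of the 97 counts. The edgeR test between the groups gave an adjusted p of 0.000322. Fosl1 was again present in every mutant library, while the only wild-type counts were the 3 in the untreated WT libraries.

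Klf10 was at 17.3, 28.0, 31.2 and 29.2 CPM in WT + TAM and at 43.5, 47.5 and 37.5 CPM in Mtm1-/y + TAM (0.69 ± 0.21, adjusted p = 0.0281). The mutant libraries were all above, but the call was lost without Mtm1-/y + TAM replicate 1 or 2 (adjusted p = 0.0746 and 0.112) and without the filter (adjusted p = 0.0575). Myc was at 2.49, 0.816, 1.25 and 0.725 CPM in WT + TAM and at 4.77, 2.54 and 3.25 CPM in Mtm1-/y + TAM, with little room between the groups, and was called (1.39 ± 0.36, adjusted p = 0.0131) except without Mtm1-/y + TAM replicate 1 (1.13, adjusted p = 0.0647). Nr4a1 was called lower, at 368, 276, 304 and 372 CPM in WT + TAM and 151, 131 and 220 CPM in Mtm1-/y + TAM, with no overlap (-0.98 ± 0.21, adjusted p = 0.00478). Of the members called between the untreated groups, Jund (0.41 ± 0.23, adjusted p = 0.223), Zfp36 (0.13 ± 0.13, adjusted p = 0.525), Btg2 (0.25 ± 0.30, adjusted p = 0.617), Maff (-0.35 ± 0.46, adjusted p = 0.644), Jun (-0.20 ± 0.14, adjusted p = 0.369) and Dusp1 (-0.39 ± 0.23, adjusted p = 0.252) were not called between the treated groups. Egr1 stayed just short of the threshold (1.63 ± 0.56, adjusted p = 0.0569) and passed it in DESeq2 (adjusted p = 0.0277) and without WT + TAM replicate 2 or Mtm1-/y replicate 1, 2 or 4 (adjusted p = 0.0114 to 0.0494). Atf3 (1.41 ± 0.54, adjusted p = 0.0815), Egr3 (0.95 ± 0.40, adjusted p = 0.110), Ier5 (0.51 ± 0.23, adjusted p = 0.122), Fos (0.83 ± 0.54, adjusted p = 0.314), Ier2 (0.37 ± 0.25, adjusted p = 0.323), Csrnp1 (-0.76 ± 0.46, adjusted p = 0.267) and Arc (-0.69 ± 0.36, adjusted p = 0.195) were not called. Atf3 passed without WT + TAM replicate 2 (adjusted p = 0.0222) and Egr3 without WT + TAM replicate 1 (adjusted p = 0.0239).

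The members not called in either genotype comparison varied in size of difference and in overlap between the treated groups. Nr4a2 was at 1.55 to 2.86 CPM in WT + TAM and 0.583 to 1.46 CPM in Mtm1-/y + TAM, without overlap (-0.97 ± 0.43, adjusted p = 0.127), and Klf4 at 12.5 to 26.0 and 9.49 to 10.95 CPM, also without overlap (-0.78 ± 0.42, adjusted p = 0.214, or 0.0130 without Mtm1-/y replicate 1). Fosb (-1.06 ± 0.99), Nr4a3 (-0.60 ± 0.86), Klf2 (-0.47 ± 0.23), Nfkbiz (-0.33 ± 0.20), Fosl2 (-0.29 ± 0.15), Rhob (-0.25 ± 0.13), Socs3 (-0.16 ± 0.35), Klf6 (-0.12 ± 0.25), Ier3 (0.29 ± 0.30) and Egr2 (0.48 ± 0.37) did not pass. With both libraries that stood apart left out, 6 members were called higher and 4 lower, with Egr3 (1.35, adjusted p = 0.00946), Ier3 (0.67, adjusted p = 0.0413), Nr4a2 (-1.06, adjusted p = 0.0367), Klf2 (-0.59, adjusted p = 0.0335) and Klf4 (-0.91, adjusted p = 0.00223) then called. The share of all tested genes called in that fit is not given here. Without WT + TAM replicate 1 alone, 3339 of 15510 tested genes were called in this comparison, against 3121 of 15533 with all libraries. Between the treated groups 4 of 6 endothelial markers and 3 of 4 satellite cell markers were called lower in the mutant. Of 4 smooth muscle and pericyte markers 3 were called lower and 1 higher. Over all marker lists 1 of 46 tested genes was called higher and 10 lower, beside 10.6% and 9.46% of all tested genes.

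**Figure D3:**
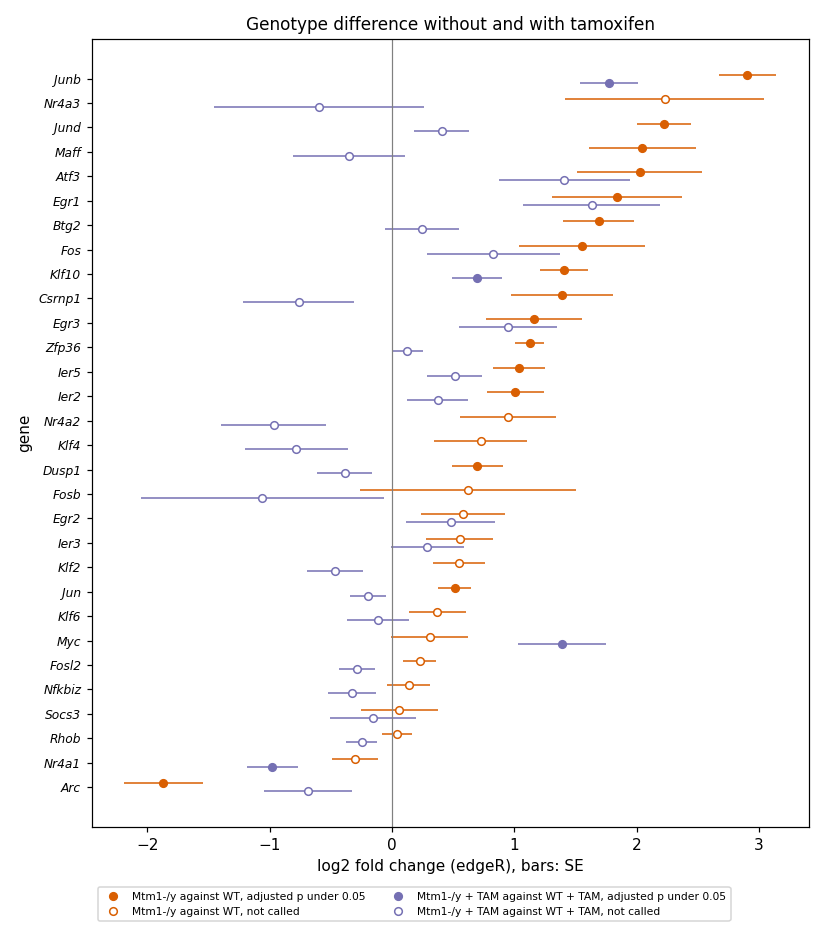
Log2 fold change of each immediate early gene between genotypes, without tamoxifen (orange) and with tamoxifen (purple), with the SE as bars and filled points for adjusted p under 0.05; Fosl1 is left out because it had 0 counts in WT + TAM. Most orange points lie right of 0, while purple points lie on both sides.

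In WT mice given tamoxifen a single member, Zfp36, was called. It was at 23.8, 27.4, 29.3 and 28.1 CPM in WT and at 40.1, 50.01, 40.9 and 55.9 CPM in WT + TAM. The groups did not overlap, and the log2 fold change was 0.78 ± 0.12 (adjusted p = 0.00975). That is 3.23% of the members, beside 0.309% of all tested genes. DESeq2 called 5 members (Zfp36, Jund, Jun and Klf10 higher and Arc lower), beside 295 of the 16637 genes it tested. The edgeR call of Zfp36 was lost without WT replicate 1 (0.72, adjusted p = 0.0554). An unadjusted p under 0.05 was reached by 8 members higher and 2 lower in WT + TAM, or 10 of 31, against 11.3% of all tested genes (6.03% higher and 5.28% lower). The value was above 0 for 24 of the 31, with a median of 0.45 against 0.00 over all tested genes. The WT + TAM values lay wholly above the WT values for 6 members (4.22% of all tested genes) and wholly below for 1 (3.86%).

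Jund was at 5.17, 4.23, 6.15 and 5.37 CPM in WT and at 10.7, 14.7, 9.34 and 9.53 CPM in WT + TAM, with no overlap, and just missed the threshold (1.08 ± 0.22, adjusted p = 0.0532). Jun was at 30.1, 39.0, 35.7 and 36.9 CPM in WT and at 55.8, 63.9, 51.9 and 51.6 CPM in WT + TAM, with no overlap either (0.66 ± 0.13, adjusted p = 0.0541). Both passed with RLE factors (adjusted p = 0.0498 for Jund and 0.0495 for Jun) and in DESeq2. Jund also passed without Mtm1-/y replicate 1 or 4 (adjusted p = 0.0206 and 0.0356), and Jun without Mtm1-/y replicate 1 or 3 or Mtm1-/y + TAM replicate 1 (adjusted p = 0.0281 to 0.0498). Klf10 was at 14.96, 12.0, 20.8 and 15.2 CPM in WT and at 17.3, 28.0, 31.2 and 29.2 CPM in WT + TAM, where replicate 1 stayed in the WT range (0.75 ± 0.20, adjusted p = 0.141). Without that library Klf10 was called (0.91, adjusted p = 0.0204). Arc was at 5.98, 2.49, 4.03 and 5.63 CPM in WT and at 1.88, 2.34, 1.11 and 2.44 CPM in WT + TAM, with no overlap, but its adjusted p was 0.123 (-1.25 ± 0.31). Fibroblast markers summed to 462 to 568 CPM in WT and to 1953, 569, 362 and 833 CPM in WT + TAM replicates 1 to 4, and Schwann markers to 113 CPM in WT + TAM replicate 1 against 39.7 to 73.4 CPM in the rest of the group, while 0 of the 46 tested markers of all lists were called by edgeR (3 higher and 0 lower at an unadjusted p under 0.05) and 1 by DESeq2. At an unadjusted p under 0.05, 6.03% of all tested genes were higher and 5.28% lower. Blood markers summed to 69.1 to 96.2 CPM in WT and 80.6 to 198 CPM in WT + TAM. Their part in the values above was not tested. With both libraries that stood apart left out, a choice made after seeing the data, 6 members were called higher and 1 lower. The share of all tested genes called without both libraries is not given here. Without WT + TAM replicate 1 alone, 111 of 15510 tested genes were called in this comparison, against 48 of 15533 with all libraries.

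In Mtm1-/y mice given tamoxifen 0 members were called by edgeR, where 0.0129% of all tested genes were, and 0 by DESeq2. An unadjusted p under 0.05 was reached by 10 of the 31 (5.54% of all tested genes), with 0 higher (2.65%) and 10 lower (2.90%) in Mtm1-/y + TAM. The value was below 0 for 27 members, with a median of -0.34 against 0.00 over all tested genes, and Mtm1-/y + TAM values lay wholly below Mtm1-/y values for 4 members (2.38% of all tested genes) and wholly above for 0 (3.33%). The lowest adjusted p among the members was 0.855.

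Jund, with the lowest unadjusted p, was at 32.3, 29.7, 19.5 and 16.3 CPM in Mtm1-/y and at 12.1, 16.7 and 15.004 CPM in Mtm1-/y + TAM, where a treated library only just passed the lowest untreated one (-0.74 ± 0.23). Csrnp1 was at 51.1, 10.97, 25.7 and 13.1 CPM in Mtm1-/y and at 5.62, 12.1 and 8.69 CPM in Mtm1-/y + TAM (-1.51 ± 0.46). Nfkbiz, coding for an atypical inhibitor of NF-kappaB, was at 5.15, 3.75, 4.42 and 3.87 CPM and at 3.07, 2.44 and 3.07 CPM (-0.59 ± 0.20). Of these genes only Nfkbiz had separate groups. Dusp1 was at 105, 46.9, 88.1 and 64.0 CPM in Mtm1-/y and at 38.1, 51.9 and 51.5 CPM in Mtm1-/y + TAM (-0.69 ± 0.23). Btg2 was at 143, 56.7, 64.9 and 66.9 CPM and at 50.5, 53.4 and 41.5 CPM, without overlap (-0.77 ± 0.31). Maff and Socs3 were the other members without overlap, both lower in Mtm1-/y + TAM (-1.10 ± 0.46 and -0.71 ± 0.35). Macrophage markers summed to 15.4 to 31.4 CPM in Mtm1-/y and 25.8 to 45.8 CPM in Mtm1-/y + TAM, and 0 of the 46 markers were called by edgeR (5 higher and 1 lower at an unadjusted p under 0.05) and 0 by DESeq2. Of all tested genes 2.65% were higher and 2.90% lower at an unadjusted p under 0.05. Junb, Klf10, Fosl1 and Egr1 remained within the spread of the untreated mutants (-0.38 ± 0.23, 0.04 ± 0.21, -0.12 ± 0.49 and 0.05 ± 0.55, each with an adjusted p of at least 0.860).

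**Figure D4:**
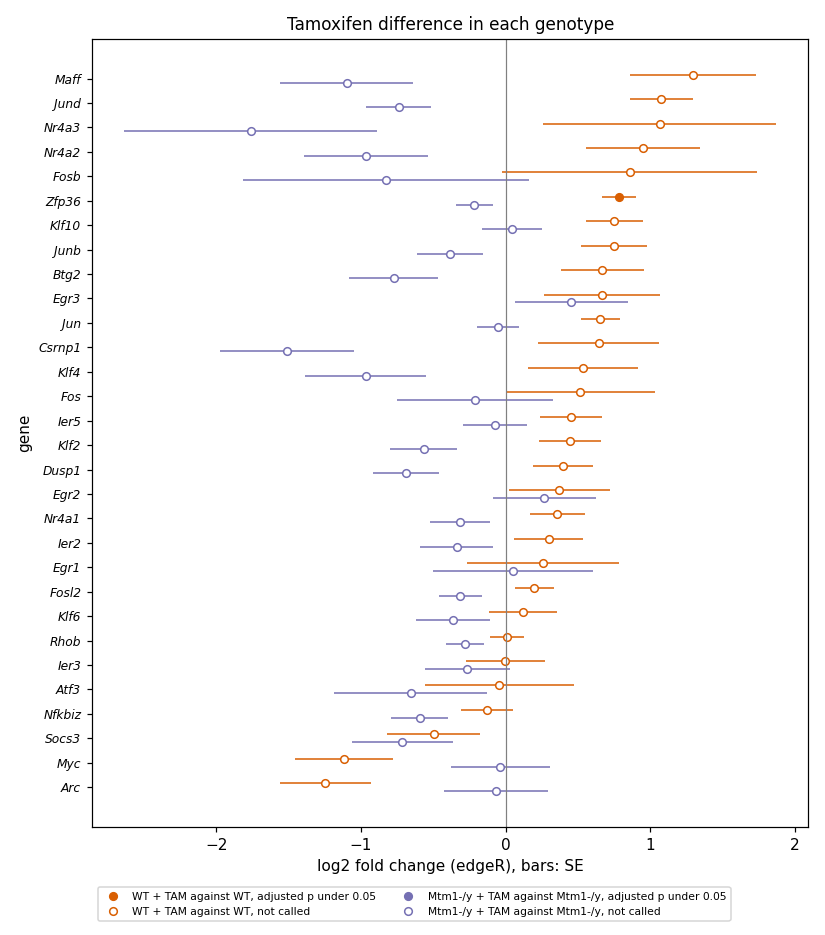
Log2 fold change of each immediate early gene with tamoxifen, in WT (orange) and in Mtm1-/y (purple), with the SE as bars and filled points for adjusted p under 0.05; Fosl1 is left out because it had 0 counts in WT + TAM. The orange points lie right of 0 for 24 members, the purple points lie left of 0 for 27 members with Fosl1 counted, and Zfp36 in WT is the single filled point.

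The difference between the tamoxifen effects in the mutant and in WT (the interaction of genotype with treatment) was tested directly. By edgeR 0 of the 31 members were called, as were 0% of all tested genes. DESeq2 called 4 members, all lower (Jund, Zfp36, Maff and Csrnp1), beside 72 of the 16055 genes it tested. The interaction had an unadjusted p under 0.05 for 17 of the 31 members (10.6% of all tested genes), 2 higher (4.69%) and 15 lower (5.94%). It was below 0 for 28 members, with a median of -0.67 against -0.01 over all tested genes. The interaction uses all of the groups, and each group also enters a tamoxifen comparison and a genotype comparison, so these counts and those above are not independent of each other. Zfp36 had an interaction of -1.0 ± 0.17 and Jund of -1.82 ± 0.32, each with an adjusted p of 0.176 in edgeR and of 0.000635 and 0.000500 in DESeq2. In edgeR Zfp36 passed without WT + TAM replicate 1 (adjusted p = 0.0440) and Jund without Mtm1-/y replicate 4 (adjusted p = 0.0446). In Zfp36 the WT level rose with tamoxifen to 46.7 ± 7.60 CPM (SD, n = 4) while the mutant level was 59.2 ± 4.24 CPM (SD, n = 4) without and 50.9 ± 6.92 CPM (SD, n = 3) with it. Maff (-2.39 ± 0.64, adjusted p = 0.318), Jun (-0.71 ± 0.20, adjusted p = 0.344) and Dusp1 (-1.08 ± 0.31, adjusted p = 0.357) were next by unadjusted p, and Maff passed in DESeq2 (adjusted p = 0.0239). Myc (1.08 ± 0.48) and Arc (1.18 ± 0.48) were the 2 with an unadjusted p under 0.05 in the other direction.

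Replicates agreed less for these genes than for the genome as a whole. The SD of log2 CPM within groups had a median of 0.427 over the 31 members and of 0.257 over all tested genes, and in each of the groups the members' median was the larger, from 0.254 against 0.179 in Mtm1-/y + TAM to 0.474 against 0.281 in Mtm1-/y. The loosest were Fosb, with an SD of 1.33, and Nr4a3, with 1.17, and the tightest were Zfp36 with 0.171 and Rhob with 0.175. Mtm1-/y replicate 1 had its group's highest value for 17 of 31 members (54.8%, against 34.3% of all tested genes), among them Junb, Jund, Btg2, Dusp1, Maff, Csrnp1, Nr4a3 and the Klf genes, while Fos, Egr1, Egr2, Ier2, Ier3 and Fosl1 were highest in replicate 4 and Mtm1-/y replicate 2 led for 1, Socs3. Of all tested genes, 19.7% were highest in Mtm1-/y replicate 4 and 23.2% in replicate 2. In WT + TAM, replicate 4 led for 13 members (22.0% of all tested genes) and replicate 3 for 1 (20.1%). In WT, replicate 1 led for 2 (26.0%), Arc and Fosl1, the latter at 2 counts.

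**Figure D5:**
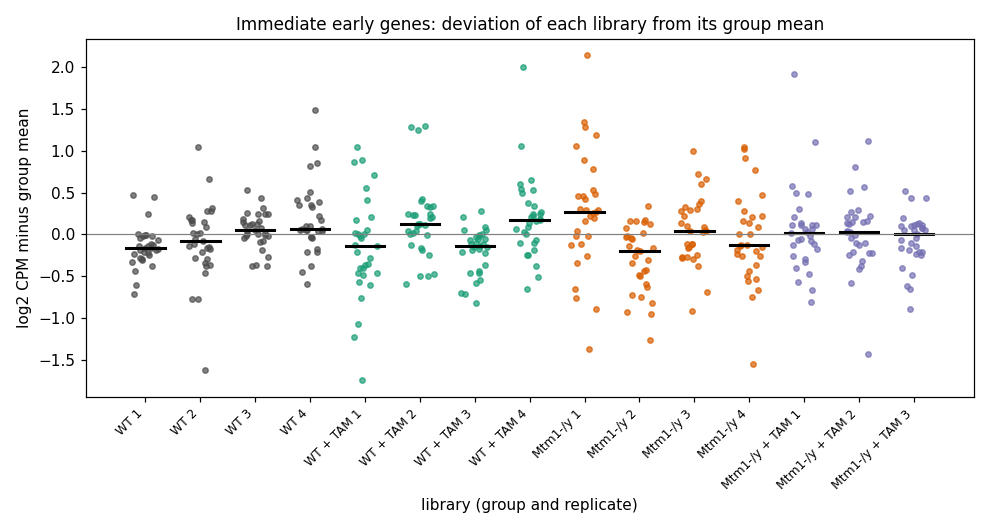
Log2 CPM of each of the 31 immediate early genes minus its group mean (points) in each library, with the median over genes as a black line. The median was highest in Mtm1-/y replicate 1, at 0.27, and lowest in Mtm1-/y replicate 2, at -0.20.

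Genes around the response were uneven, and their counts are to be read beside the shares of all tested genes given above (15.5% higher and 14.9% lower between untreated genotypes, 10.6% and 9.46% between treated ones). Of 12 kinases that carry signals to these promoters, 0 were called higher and 3 lower in Mtm1-/y against WT, namely Rps6ka1 (-1.18), Mapk9 (-0.62) and Mapk14 (-0.56), and the same 3 were called lower between the treated groups. Of 12 upstream transcription factors, 2 were called higher, Elk4 (0.52) and Rela (0.29), and 3 lower, Mrtfa (-1.06), Elk3 (-0.88) and Creb1 (-0.55). Of 17 tested feedback regulators outside the 31 genes, 5 were called higher, led by Dusp4 (3.12) and Dusp2 (2.74), nuclear phosphatases of MAP kinases, and 5 lower, led by Socs2 (-1.36) and Spry4 (-1.28). Dusp4 (3.31) and Dusp2 (2.40) were called between the treated groups too. Of 12 other early-response genes, 8 were called higher and 1 lower, with a median of 1.18. Cebpb (2.22), a leucine zipper factor, Cebpd (1.70), Sik1 (1.59), a salt-inducible kinase gene, and Id1 (1.32) rose most, and Gadd45b, a stress gene, fell by 2.07 on the log2 scale. Only Phlda1 of that list was called between the treated groups (1.20). Of 9 tested genes for secreted or surface proteins, 3 were called higher, Ptgs2 (3.74), Ccn1 (1.78) and Ccn2 (1.55), and 0 between the treated groups. With tamoxifen, 0 of the 62 tested genes of these lists were called by edgeR, in WT (7 higher and 4 lower at an unadjusted p under 0.05, 3 called by DESeq2), in Mtm1-/y (1 higher and 4 lower, 0 by DESeq2) or in the interaction (3 higher and 10 lower, 2 by DESeq2). Of all tested genes, 6.03% were higher and 5.28% lower at that unadjusted p in WT, and 2.65% and 2.90% in Mtm1-/y. For the interaction these shares were 4.69% and 5.94%. DESeq2 called 295 of 16637 genes in WT, 4 of 30040 in Mtm1-/y and 72 of 16055 in the interaction. The secreted or surface genes had a median of 0.61 in WT and -0.43 in Mtm1-/y, and the other early-response genes of 0.27 and -0.29.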

How the data were processed

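RNA of 15 tibialis anterior samples was sequenced from TruSeq stranded mRNA libraries. The deposited table holds the raw counts per Ensembl gene that the authors made, with no normalization; the builds mm10 and GRCm38 and the tools HTSeq 0.6.1p1, STAR 2.5.3a, Bowtie2 2.2.8 and cutadapt 1.10 are listed in their processing notes without roles. Strand setting and annotation release: not given in the sources used here. Symbols and coordinates came from GENCODE M21 (GRCm38).

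Counts were filtered (filterByExpr, minimum count 10), scaled by TMM and fitted with edgeR 4.0.16 in R 4.3.3 (glmQLFit, robust, 4 group means, 11 residual degrees of freedom), with Benjamini-Hochberg adjustment over 15533 genes and calls at adjusted p under 0.05. SE is the log2 fold change divided by the root of the F statistic, and log2 CPM has a prior count of 2. Intervals and floors (3 counts) cover counting error only. The script was tested on simulated data. Alternatives were RLE and upper-quartile factors, no filter and a stricter filter, DESeq2 1.42.0, an added fold threshold, a replicate block, and each library left out. Every member is named between genotypes, and with tamoxifen and in the interaction the called members and the 5 with the lowest unadjusted p, with further members named after their values were seen. Members and lists were chosen with earlier results of these data known.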

Additional observations from a re-analysis of the deposited data

Results flagged for a closer look

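Of 93 groups of 4 libraries examined, 3 (3.23%) held a library far from the others by Dixon's 95% criterion, applied to log2 CPM. Chance flags about 1 in 20. The values below are in CPM, a scale on which the criterion was not applied. Atf3 was at 11.4 CPM in WT replicate 2 and at 3.99 to 4.67 CPM in the other WT libraries. Egr1 was at 43.5 CPM in WT + TAM replicate 2, against 12.3 to 14.0 CPM in the rest of that group. Without that library Egr1 was called between the treated groups (log2 fold change 2.27, adjusted p = 0.0114). Junb was at 18.8 CPM in Mtm1-/y replicate 3, where the others were at 34.0 to 37.6 CPM, and this low value still exceeded every wild-type library.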

How the results depend on the processing

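Between untreated genotypes the number of members called stayed within 1.5 times of 17 in all alternatives, from 12 to 20 when a library was left out. The 12 came without WT replicate 1, where 3783 of 15337 tested genes were called. The 20 came without WT + TAM replicate 1, where 5116 of 15510 were called, against 4727 of 15533 with all libraries. Between the treated groups the number of members called was 5, became 3 with an absolute log2 fold change over 1 also required and 10 without both libraries that stood apart (a choice made after seeing the data), and ranged from 3 (without Mtm1-/y + TAM replicate 1) to 7. Of all 15533 tested genes, 3121 were called there, and 934 with the fold threshold. For tamoxifen in WT the number of members called was 1, and became 3 with RLE factors, 2 without a filter, 5 in DESeq2, 0 with the fold threshold and 7 without both libraries, and ranged from 0 (without WT replicate 1) to 3 (without WT + TAM replicate 1 or Mtm1-/y replicate 1). Of all 15533 tested genes, 48 were called in that comparison, 53 with RLE factors and 32 with the fold threshold. Without a filter the count was 49 of 30090, and in DESeq2 295 of 16637. Without WT replicate 1 it was 11 of 15337, and without WT + TAM replicate 1 it was 111 of 15510. For tamoxifen in Mtm1-/y the number of members called was 0 throughout. The interaction count of 0 became 1 without a filter, 4 in DESeq2 and 1 without both libraries, and ranged from 0 to 1 (without WT + TAM replicate 1 or Mtm1-/y replicate 4). Over all tested genes the interaction was called for 0 of 15533, for 2 of 30090 without a filter and for 72 of 16055 in DESeq2. Without WT + TAM replicate 1 it was called for 7 of 15510. The share of all tested genes called without both libraries is not given here, so the member counts of that fit have no background. The causes were not tested.

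Members near 0 changed sign. Rhob in untreated Mtm1-/y against WT became -0.00896 with upper-quartile factors and -0.0627 without both libraries, and ranged from -0.0624 to 0.123 when a library was left out, as Socs3 did from -0.146 to 0.430. Between the treated groups Socs3 became 0.0816 without both libraries and ranged from -0.417 to 0.126, Fosb from -2.60 to 0.173 and Maff from -0.564 to 0.115.

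The deviations of same-numbered libraries had a correlation over 0.1 in 6 of 21 pairs, and 7 were best with their own number. Between Mtm1-/y and Mtm1-/y + TAM, numbers 1 and 2 had the highest correlations (0.202 and 0.306), and number 3 had -0.068. These counts have no chance level beside them and cannot exclude a pairing. The labels state none, so the numbers were not taken as pairs. With the replicate block, 15, 6, 1, 0 and 0 members were called in the 5 comparisons in the order given. Of all 15533 tested genes, that fit called 4473, 2792, 33, 2 and 0 in the same order. Under that block Egr3 (1.19, adjusted p = 0.0511) and Csrnp1 (1.33, adjusted p = 0.0652) were not called between untreated genotypes, and Atf3 (1.35, adjusted p = 0.0349) was called between treated ones. Fosl1 rests on few counts in wild-type libraries, which limits its ratio.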
